A study of Mus musculus with 107 samples.

Results

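The calmodulin-dependent kinases described here are 10 genes: Camk2a, Camk2b, Camk2d and Camk2g, which encode the subunits of CaMKII, Camk1, Camk1d and Camk1g, which encode CaMKI isoforms, Camk4, and Camkk1 and Camkk2, which encode the kinases upstream of CaMKI and CaMKIV. They were matched by symbol to the array annotation, and for each gene, among probe sets assigned to 1 symbol, the one with the highest mean level over all arrays was taken. By this rule 9 of the 10 were measured, out of 18193 genes in all. Camkk1 was not analysed here, since no probe set was assigned to it alone in the annotation used.

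The study profiled ribosome-bound RNA from labelled cell types of mouse brain and spinal cord by translating ribosome affinity purification (TRAP). In this method each line of mice carries a bacterial artificial chromosome (BAC) transgene whose regulatory sequence directs a tagged ribosomal protein to 1 cell population, and the tag is used to pull down its ribosomes. The RNA left in the supernatant, called unbound, served as the comparison for the whole tissue. Both fractions were hybridised to Affymetrix arrays. There were 76 TRAP arrays in 24 populations and 31 unbound arrays in 6 tissues.

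The glial populations were astrocytes of cerebellum (Aldh1l1, line JD130) and cortex (Aldh1l1, lines JD130 and JD133), Bergmann glia (Septin4, DS152), mixed oligodendroglia of cerebellum and cortex (Olig2, JD97), and mature oligodendrocytes of the same tissues (Cmtm5, JD307). Cortical neurons were those of layer 5a (line TS88), layer 5b (glt25d2, DU9) and layer 6 (Ntsr1, TS16) and the Cort+ (GM130), Pnoc+ (GM64) and Cck+ (GM391) populations. Striatal neurons were Drd1+ (CP73) and Drd2+ (CP101) medium spiny neurons and cholinergic neurons. The Chat line DW167 gave the cholinergic neurons of striatum, basal forebrain and spinal cord and the motor neurons of brainstem. Cerebellar neurons were Purkinje (Pcp2, DR166 and DR168), granule (Neurod1, JP241), Golgi (Grm2, JP77), unipolar brush (Grp, JP25), and stellate and basket neurons (Lypd6, JP48). Each population had 3 arrays, except cortical astrocytes with 4 and Purkinje neurons with 6, and of the unbound arrays 9 were from cortex, 7 from cerebellum and 6 from striatum, with 3 from each of spinal cord, brainstem and basal forebrain. Every mouse carried a BAC transgene, and no age or sex is given in the sources used here. Apart from cortical astrocytes and Purkinje neurons, a population came from 1 BAC line, so population and line cannot be told apart.

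Calcium that enters a cell binds calmodulin, and the complex switches on a family of serine and threonine kinases. CaMKII is a ring of many subunits that phosphorylate one another, and in the forebrain it is among the most abundant proteins of glutamatergic synapses, where it is known for its part in long-term potentiation. CaMKI and CaMKIV work in a cascade instead, since they need phosphorylation by a CaMK kinase in addition to calmodulin. CaMKIV is largely nuclear and phosphorylates the transcription factor CREB, whereas CaMKI acts in the cytoplasm, for example in neurite growth.

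Levels are log2 intensities, and a difference of 1 is a 2-fold change. The deposited intensities had been normalised within each group, so each group was shifted to equal mean intensity of the 18 biotinylated control probe sets before groups were compared. After this shift the median of all genes tested differed between TRAP and unbound RNA by -1.96 to 1.31 over the 24 populations, between the populations compared by -2.12 to 0.77, and between unbound tissues by -0.93 to -0.31. Every comparison was therefore repeated after quantile normalisation over all arrays, which left medians of -0.23 to 0.17. A difference was called where, under both scalings and in the same direction, limma's adjusted p was below 0.05 and the fold was 2 or more. The level 6, an intensity of 64, was the detection limit: a gene was tested where 1 of the groups compared reached it, and a fold against a lower level is given as at least the fold over 6. A call rests on the fitted difference, so such a bound can lie under 2. Differences, standard errors (SE) and adjusted p-values are those of the control-probe scaling. Within groups the arrays correlated at 0.973 to 1.00, and 33 of the 270 combinations of member and group held 1 value on all arrays, so an SD of 0 is a property of the normalisation within groups and no measure of precision. In a bulk fraction, fewer cells of a type and less RNA per cell cannot be told apart. In TRAP RNA of cerebellar astrocytes, cortical astrocytes and Bergmann glia 6 of 7, 7 of 7 and 5 of 7 astrocyte markers were higher than in unbound RNA, and 3 of 4 Purkinje markers were higher in Purkinje neurons. Of the 4 medium spiny markers none was higher and 1 lower in Drd1+ neurons (mean level 12.3 against 12), and 1 was higher and 1 lower in Drd2+ neurons (mean level 12.9 against 12). In Drd1+ neurons both cortical glutamatergic markers tested were also higher (mean level 7.19 against 4.91). Of 4 such markers 2 were higher in layer 5a and 1 each in layer 5b and layer 6 neurons. No granule marker passed in granule neurons, whose unbound RNA comes from the same cerebellum (mean level 13.7 against 13.9). Chat itself was under 6 in all 4 populations of the Chat line, while both other cholinergic markers were higher in each.

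Across the 24 TRAP populations, Camk2a, Camk2b, Camk1d and Camkk2 were highest in Drd1+ medium spiny neurons by control probes. Camk2d, Camk2g and Camk1g were highest in layer 5a neurons, Camk4 in granule neurons, and Camk1 in Bergmann glia. After quantile normalisation the top was Drd2+ neurons for Camk2a and Camkk2, layer 5b for Camk2d and layer 6 for Camk2g. For Camk1g it was stellate and basket neurons, and Camk2b, Camk1d, Camk4 and Camk1 kept theirs. Levels and their order are given by control probes unless stated. The span from the highest to the lowest population was 10.59 log2 units for Camk2a, 10.55 for Camk4 and 5.91 for Camkk2. The lowest means of Camk2a (1.55) and Camk4 (2.73) lay far under the detection limit. Their spans are therefore not measured sizes, whereas that of Camkk2 ended at 8.81. Camkk2 was the only member at or over the detection limit in all 24 populations, while Camk2d was under it in 11, Camk2a and Camk1g in 8 each, Camk1d in 6, Camk4 in 4, Camk2b in 3, Camk1 in 2 and Camk2g in 1. Every layer 5a value comes from arrays whose median over all genes was 1.31 above unbound RNA. Levels of different genes come from different probe sets and are not set against each other.

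**Figure D1:**
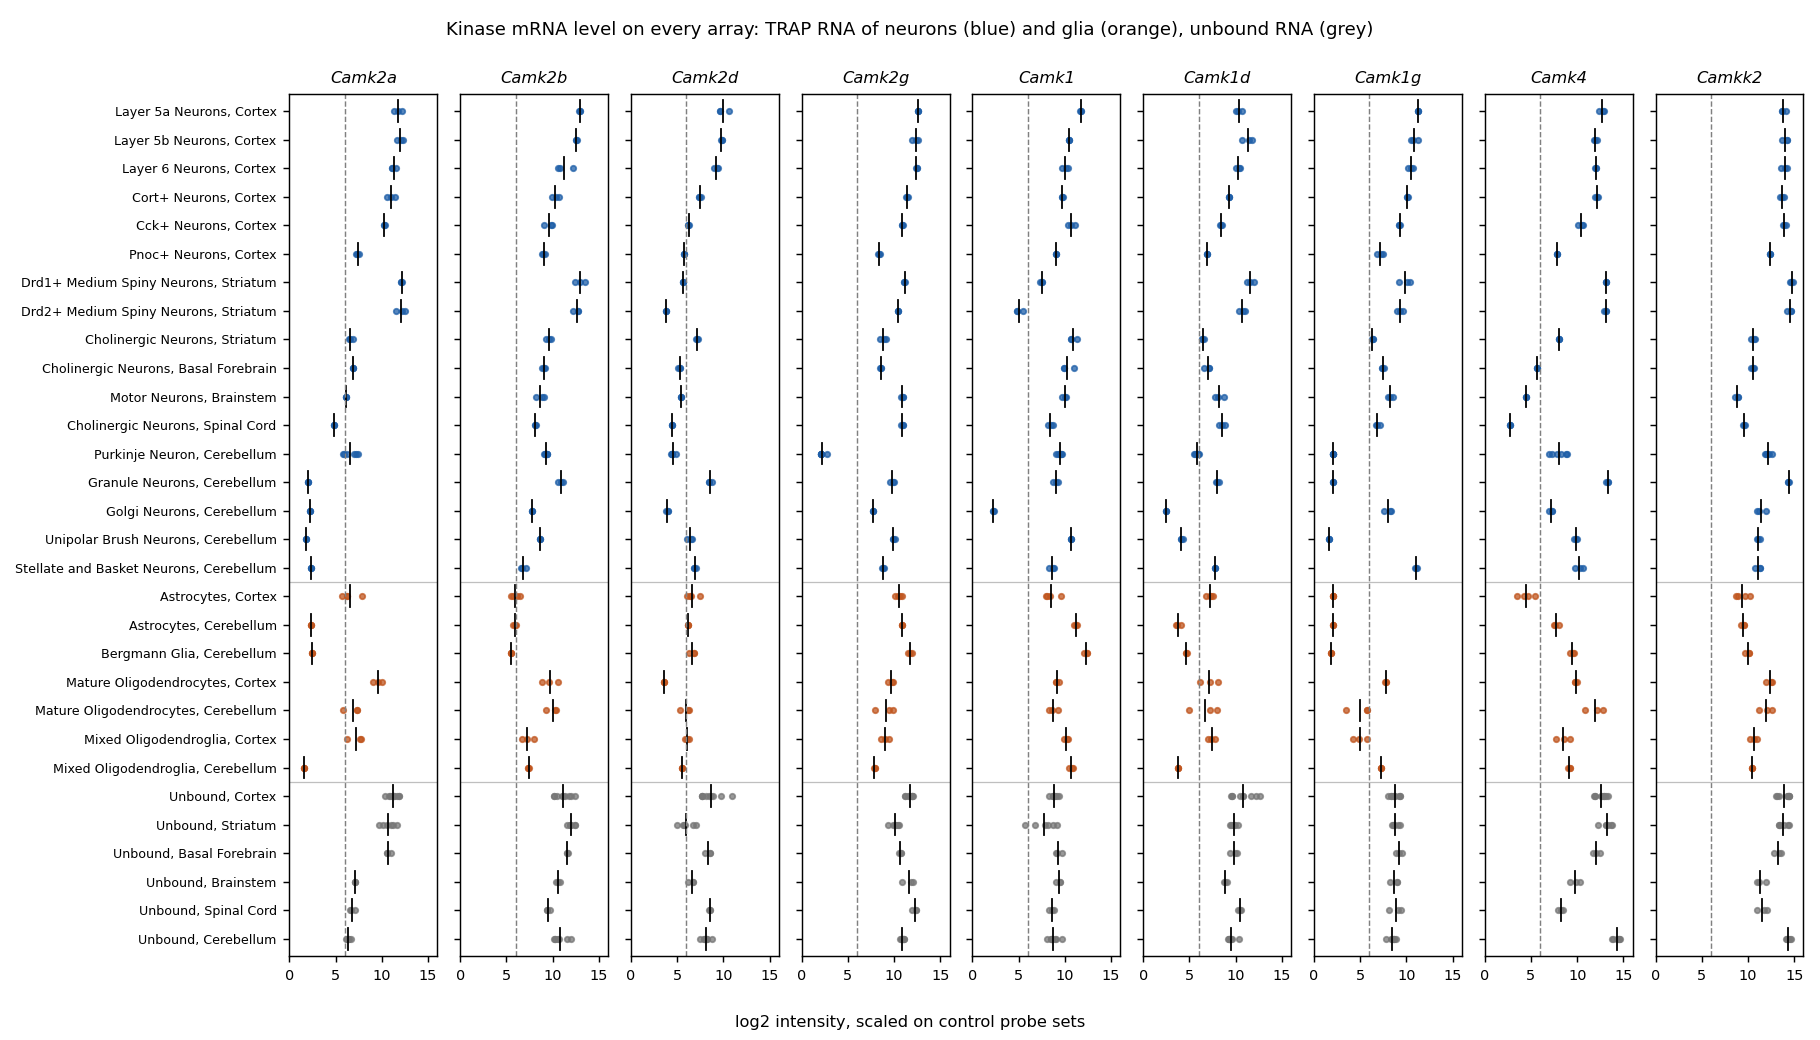
Log2 intensity of the 9 measured kinases, 1 panel each, on every array (points) with the group mean (black line), after control-probe scaling. Rows are TRAP neurons (blue), TRAP glia (orange) and unbound RNA (grey), and the dashed line is the limit of 6. Camk1 reaches its highest values, 12.27 on average, in an orange row (Bergmann glia), and all Camkk2 means stay to the right of the dashed line.

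The upstream sequences of 3 members are shown because their population patterns differ. Camk2b had its 3 lowest populations in Bergmann glia and both astrocyte populations, Camk1 was highest in Bergmann glia, and Camk1g was near its lowest values in those 3 glial populations and in granule and Purkinje neurons. Each is the 250 bases before a RefSeq transcript start on the build GRCm38.p6, printed 5′ to 3′ on the strand of the gene; RefSeq entries were matched for 7 of the 10 members. Camk2b lies at chr11:6065749-6065998, minus strand, Camk1 at chr6:113343923-113344172, minus strand, and Camk1g at chr1:193370283-193370532, minus strand. Capitals mark GC boxes (GGGCGG, either strand), which bind Sp-family factors, and E-boxes (CANNTG, the same on both strands), which bind basic helix-loop-helix factors.
Camk2b: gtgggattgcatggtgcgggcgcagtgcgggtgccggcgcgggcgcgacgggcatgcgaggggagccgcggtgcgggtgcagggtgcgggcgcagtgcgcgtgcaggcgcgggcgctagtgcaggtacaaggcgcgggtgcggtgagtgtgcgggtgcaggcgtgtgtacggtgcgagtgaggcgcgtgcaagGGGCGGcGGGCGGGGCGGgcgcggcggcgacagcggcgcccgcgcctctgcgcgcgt
Camk1: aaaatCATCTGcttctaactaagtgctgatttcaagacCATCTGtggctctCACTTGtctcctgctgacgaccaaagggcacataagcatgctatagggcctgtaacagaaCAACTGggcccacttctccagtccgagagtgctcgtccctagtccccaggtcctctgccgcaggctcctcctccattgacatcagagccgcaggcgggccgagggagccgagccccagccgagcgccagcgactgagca
Camk1g: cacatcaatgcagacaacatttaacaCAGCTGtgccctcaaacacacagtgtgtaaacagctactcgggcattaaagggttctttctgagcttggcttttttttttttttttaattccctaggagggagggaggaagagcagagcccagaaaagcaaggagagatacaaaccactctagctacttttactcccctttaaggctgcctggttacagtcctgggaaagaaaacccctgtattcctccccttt
The Camk2b stretch held 3 GC boxes, of which the second and the third overlap, no E-box, 44 CG dinucleotides and 78.4% G or C. The Camk1 stretch held 4 E-boxes, no GC box, 11 CG dinucleotides and 58% G or C. The Camk1g stretch held 1 E-box, no GC box, 1 CG dinucleotide and 44.8% G or C. No GC box overlapped an E-box. Of 32851 RefSeq stretches of the same length, 32.74% held a GC box and 66.22% an E-box, and the cyclic AMP response element TGACGTCA (1.546% of stretches) was in none of the members' stretches. These matches describe letters, and binding was not measured.

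Over all 24 populations the members were lower in TRAP than in unbound RNA in 101 of 205 tests and higher in 17, with 87 not called, against 20% and 14.4% over all genes, 34.4% together. In the 7 glial populations 44 of 60 were lower and 4 higher (all genes, 26.2% and 20.2%), and each of the 4 was Camk1. Camk1d, Camk4 and Camkk2 were lower in all 7. In the 17 neuron populations 57 of 145 were lower and 13 higher (all genes, 17.4% and 12%). Of these 13, 5 were Camk1 and 5 Camk1g, and Camk2a, Camk2d and Camk1d gave 1 each. The comparisons within a tissue share the same unbound arrays, so they are not independent of one another.

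By population, members called below unbound RNA were few in the forebrain projection neurons. The median of all genes tested also lay above unbound RNA there, from 0.20 in Drd2+ to 1.31 in layer 5a neurons by control probes. In layer 5b neurons 4.97% of all genes were called lower. Layer 5a neurons had 2 higher (Camk1 and Camk1g) of 9 tested (all genes in either direction, 24.4%). Layer 5b neurons had 2 higher (Camk1 and Camk1g) of 9 tested (all genes, 22%), and layer 6 neurons 1 higher (Camk1g) of 9 tested (all genes, 18.6%). Drd1+ neurons had 1 higher (Camk1d) of 8 tested (all genes, 22.6%), and Drd2+ neurons 1 lower (Camk1) and 1 higher (Camk2a) of 8 tested (all genes, 27%). Among the other cortical neurons, Cort+ neurons had 2 lower (Camk2d and Camk1d) and 1 higher (Camk1g) of 9 tested (all genes, 14.2%). Cck+ neurons had 4 lower (Camk2b, Camk2d, Camk1d and Camk4) and 1 higher (Camk1) of 9 tested (all genes, 32.9%), and Pnoc+ neurons 5 lower (Camk2a, Camk2d, Camk2g, Camk1d and Camk4) of 9 tested (all genes, 26.7%). The Chat line lay mostly on the lower side. Its striatal neurons had 7 lower (Camk2a, Camk2b, Camk2g, Camk1d, Camk1g, Camk4 and Camkk2) and 2 higher (Camk2d and Camk1) of 9 tested (all genes, 48.4%). Those of basal forebrain had 7 lower (Camk2a, Camk2b, Camk2d, Camk2g, Camk1d, Camk4 and Camkk2) of 9 tested (all genes, 31%). Those of spinal cord had 3 lower (Camk2d, Camk4 and Camkk2) of 8 tested (all genes, 31%), and brainstem motor neurons 3 lower (Camk2b, Camk4 and Camkk2) of 8 tested (all genes, 30.8%).

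In cerebellum, granule neurons had 2 lower (Camk1g and Camk4) of 8 tested (all genes, 24.8%). Purkinje neurons had 6 lower (Camk2d, Camk2g, Camk1d, Camk1g, Camk4 and Camkk2) of 9 tested (all genes, 43.7%), and Golgi neurons 7 lower (Camk2b, Camk2d, Camk2g, Camk1, Camk1d, Camk4 and Camkk2) of 8 tested (all genes, 33.1%). Unipolar brush neurons had 5 lower (Camk2b, Camk1d, Camk1g, Camk4 and Camkk2) and 1 higher (Camk1) of 8 tested (all genes, 34.6%). Stellate and basket neurons had 5 lower (Camk2b, Camk2g, Camk1d, Camk4 and Camkk2) and 1 higher (Camk1g) of 8 tested (all genes, 31.1%). Among glia, cortical astrocytes had 8 lower (Camk2a, Camk2b, Camk2d, Camk2g, Camk1d, Camk1g, Camk4 and Camkk2) of 9 tested (all genes, 61%). Cerebellar astrocytes had 5 lower (Camk2b, Camk1d, Camk1g, Camk4 and Camkk2) and 1 higher (Camk1) of 8 tested (all genes, 46.9%), and Bergmann glia 5 lower (Camk2b, Camk1d, Camk1g, Camk4 and Camkk2) and 1 higher (Camk1) of 8 tested (all genes, 48.4%). Mixed oligodendroglia of cortex had 8 lower (Camk2a, Camk2b, Camk2d, Camk2g, Camk1d, Camk1g, Camk4 and Camkk2) and 1 higher (Camk1) of 9 tested (all genes, 49%), and those of cerebellum 6 lower (Camk2b, Camk2d, Camk2g, Camk1d, Camk4 and Camkk2) and 1 higher (Camk1) of 8 tested (all genes, 45.5%). Mature oligodendrocytes of cortex had 7 lower (Camk2a, Camk2b, Camk2d, Camk2g, Camk1d, Camk4 and Camkk2) of 9 tested (all genes, 39.1%), and those of cerebellum 5 lower (Camk2d, Camk1d, Camk1g, Camk4 and Camkk2) of 9 tested (all genes, 34%).

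**Figure D2:**
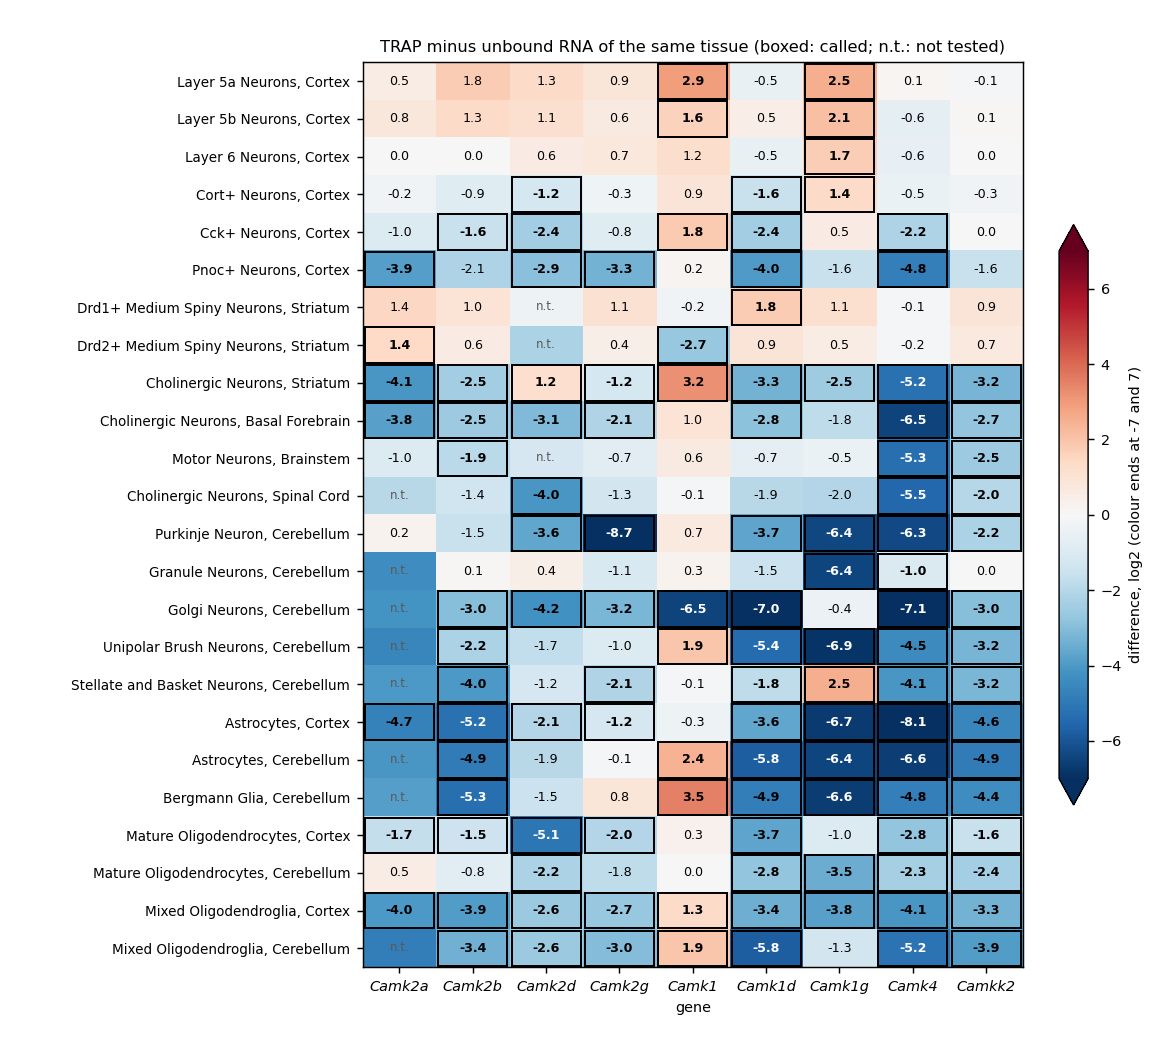
Difference in log2 level, TRAP minus unbound RNA of the same tissue, for each population (rows) and kinase (columns), after control-probe scaling; boxed values were called and n.t. marks values not tested. The largest negative value is -8.69 for Camk2g in Purkinje neurons, and Camk1 is boxed as higher in 4 of the 7 glial rows.

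Camk2a, the alpha subunit of CaMKII and a standard marker of forebrain excitatory neurons, was read at 12.22, 12.10 and 12.10 in Drd1+ and 11.58, 12.54 and 12.22 in Drd2+ medium spiny neurons, 12.29, 12.12 and 11.64 in layer 5b and 12.18, 11.30 and 11.72 in layer 5a neurons. These 4 leading populations, layer 6 (11.27 ± 0.27 (SD, n = 3)) and Cort+ neurons form a run in which no neighbour was set apart from the next by more than the sum of their SDs. Cort+ neurons averaged 11.00 ± 0.45, Cck+ neurons 10.26 ± 0.11 and Pnoc+ neurons 7.37 ± 0.16 (SD, n = 3 each). All TRAP populations of cerebellum except Purkinje neurons and mature oligodendrocytes were between 1.55 and 2.48, far under the detection limit. Purkinje neurons had 5.82 at the lowest, 6.63 at the median and 7.38 at the highest over 6 arrays, around the limit. Against its unbound RNA, Camk2a was called higher in Drd2+ neurons alone (log2 difference 1.41, SE 0.32, 2.65-fold, adjusted p = 1e-04), whose 3 values overlapped those of striatal unbound RNA (9.66 at the lowest, 10.78 at the median and 11.68 at the highest over 6 arrays). In Drd1+ neurons the difference was 1.43 by control probes and 0.98 by quantile normalisation, just short of the 2-fold call. The Drd2+ call was lost with TRAP and unbound arrays of its line paired by number (1.28). The layer 5a, 5b and 6 neurons differed from cortical unbound RNA by 0.50, 0.78 and 0.04 by control probes, none called. After quantile normalisation their means were 10.86, 11.71 and 10.95, against 11.46 in cortical unbound RNA.

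The lower calls of Camk2a were in cortical astrocytes (26.3-fold), both cortical oligodendroglial populations, Pnoc+ neurons (14.5-fold) and the cholinergic neurons of striatum (17.1-fold) and basal forebrain (14-fold). Striatal cholinergic neurons had 6.83, 6.47 and 6.52, below all unbound arrays of striatum. In 8 populations, 7 of them cerebellar, neither side reached 6 under both scalings and no test was made.

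Camk2b, the beta subunit, which binds actin, was 13.55, 13.00 and 12.46 in Drd1+ neurons, 12.94, 13.00 and 12.85 in layer 5a, 12.79, 12.22 and 12.77 in Drd2+ and 12.48, 12.60 and 12.48 in layer 5b neurons. These 4 did not separate by their SDs, and layer 6 was lower and more variable at 12.24, 10.81 and 10.59. Granule neurons followed with 10.88 ± 0.30 (SD, n = 3), and the cerebellar neuron populations ran from 6.80 in stellate and basket to 10.88 in granule neurons. The lowest populations were Bergmann glia (5.53 on each of 3 arrays), cerebellar astrocytes (6.00, 5.76 and 5.89) and cortical astrocytes (5.48, 6.12, 5.76 and 6.45), all under or at the limit. Camk2b was called higher than unbound RNA in no population and lower in 13 of 24; at an unadjusted limma p under 0.05, 3 of 24 were higher by control probes and 2 after quantile normalisation. The decrease was at least 36-fold in cortical astrocytes (adjusted p = 8.7e-30), at least 27.8-fold in both cerebellar astrocytes and Bergmann glia, where the limit sets the bound, and 16-fold in stellate and basket neurons (adjusted p = 2.5e-19). In granule neurons it did not pass (log2 difference 0.09, SE 0.32, adjusted p = 0.82).

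Camk2d, the delta subunit, best known from heart muscle, was highest in the 3 cortical layer populations, with 9.68, 10.59 and 9.68 in layer 5a, 9.74, 9.81 and 9.81 in layer 5b and 9.34, 8.96 and 9.46 in layer 6 neurons. Granule neurons were next (8.55 ± 0.17 (SD, n = 3)), and Cort+ neurons had 7.44 ± 0.16. No array of layer 6 neurons overlapped those of granule neurons, and none of these overlapped those of Cort+ neurons. In striatum cholinergic neurons had 7.27, 7.16 and 7.08, whereas Drd1+ and Drd2+ neurons had 5.65, 5.60 and 5.65 and 3.75 on each of 3 arrays, under the limit. Camk2d was called higher than unbound RNA in striatal cholinergic neurons alone (log2 difference 1.19, SE 0.33, at least 2.25-fold, adjusted p = 0.00085), where striatal unbound RNA averaged 5.98 ± 0.77 (SD, n = 6). With the unbound arrays of the Chat line alone it was 0.29 and not called. It was lower in 12 of 21 populations tested, by at least 6.37-fold in cortical mature oligodendrocytes, its lowest population (3.60 ± 0.02).

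Camk2g, the gamma subunit, known as a shuttle of calmodulin to the nucleus, was over the limit in 23 of the 24 populations. It was 12.59, 12.53 and 12.53 in layer 5a, 12.44, 12.44 and 12.37 in layer 6 and 12.62, 12.38 and 11.96 in layer 5b neurons, and 11.92, 11.71 and 11.55 in Bergmann glia, which stood above every cerebellar neuron population. Purkinje neurons had 2.10 at the lowest, 2.10 at the median and 2.78 at the highest over 6 arrays, and 22 of the other 23 populations lay between 7.72 and 12.41. Between Purkinje TRAP RNA and cerebellar unbound RNA (10.63 at the lowest, 10.96 at the median and 11.08 at the highest over 7 arrays) no array overlapped (log2 difference -8.69, SE 0.17, at least 29.8-fold, adjusted p = 2.3e-60). The second probe set of the gene gave -5.73. Camk2g was lower in 10 of 24 populations and called higher in none; at an unadjusted limma p under 0.05, 5 of 24 were higher by control probes and 3 after quantile normalisation. Bergmann glia differed from unbound RNA by 0.83, short of 2-fold by control probes (adjusted p = 0.00023).

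Camk1, a cytoplasmic CaMKI isoform, had glia among its highest populations. It was 12.04, 12.41 and 12.37 in Bergmann glia, 11.79, 11.79 and 11.66 in layer 5a neurons, 11.23, 11.27 and 10.96 in cerebellar astrocytes and 10.71, 10.69 and 11.35 in striatal cholinergic neurons. By control probes Bergmann glia were set apart from layer 5a neurons, and those from cerebellar astrocytes, by more than the sum of their SDs. From cerebellar astrocytes down to Cort+ neurons 11 populations followed without such a gap. After quantile normalisation layer 5a neurons (10.86) stood below cerebellar astrocytes (11.28), and Bergmann glia (12.01) stayed highest. At the bottom, Golgi neurons had 2.21, 2.29 and 2.21 and Drd2+ neurons 4.78, 4.84 and 5.52, both under the limit, and Drd1+ neurons 7.35, 7.56 and 7.57. Unbound RNA differed little between tissues by comparison, from 7.73 ± 1.28 in striatum to 9.32 ± 0.27 in brainstem.

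Camk1 exceeded its unbound RNA in TRAP RNA of 9 populations, 4 of them glial. The difference was 11.6-fold in Bergmann glia (adjusted p = 3.4e-17), 5.33-fold in cerebellar astrocytes (adjusted p = 1.1e-10), and 3.85-fold and 2.48-fold in mixed oligodendroglia of cerebellum and cortex. None of these TRAP arrays overlapped the unbound arrays of its tissue, which for cerebellum were 8.05 at the lowest, 8.60 at the median and 9.68 at the highest over 7 arrays. In cortical astrocytes Camk1 did not pass, with 8.38, 8.10, 7.98 and 9.55 against 8.27 at the lowest, 8.82 at the median and 9.38 at the highest over 9 arrays in unbound RNA (log2 difference -0.33, SE 0.28, adjusted p = 0.26). Among neurons it was higher in striatal cholinergic (9.13-fold), layer 5a (7.52-fold), unipolar brush (3.86-fold), Cck+ (3.59-fold) and layer 5b neurons (3.06-fold), and lower in Drd2+ (at least 3.31-fold) and Golgi neurons (at least 6.67-fold). Without layer 5b replicate 3, the layer 5b call was lost (log2 difference 1.61). Markers of astrocytes, whose cerebellar populations were high in Camk1, did not move the same way in these neurons. They were all 7 lower in striatal cholinergic (mean level 6.23 against 10.2) and 6 of 7 lower in Cck+ TRAP RNA (mean level 6.79 against 10.5). They were 4 of 7 higher in layer 5a (mean level 12.8 against 10.5) and 2 of 7 higher in unipolar brush (mean level 11.7 against 11.5) and in layer 5b neurons (mean level 11 against 10.5). Bergmann glia markers were 2 of 3 higher in layer 5a (mean level 11.2 against 8.71) and in unipolar brush neurons (mean level 14 against 12.8), 1 of 2 tested higher in striatal cholinergic neurons, and none higher in Cck+ and layer 5b neurons. Oligodendrocyte markers were 3 of 5 higher in layer 5a (mean level 11.7 against 9.42), 1 of 5 higher in layer 5b and unipolar brush neurons, and none higher in the other two. The layer 5a TRAP RNA also had 6 of 6 microglia and macrophage markers higher (mean level 11.3 against 6.25). Layer 5b had 2 of 3 such markers tested higher, and all 4 vascular markers tested (mean level 7.34 against 3.72). The part of these cells in the Camk1 values was not tested.

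Camk1d, the delta isoform of CaMKI, followed the forebrain projection neurons instead. It was 11.97, 11.52 and 11.24 in Drd1+, 11.42, 11.79 and 10.69 in layer 5b, 10.76, 10.96 and 10.41 in Drd2+, 10.04, 10.69 and 10.22 in layer 5a and 10.40, 10.50 and 10.01 in layer 6 neurons, and no gap between neighbours in this run exceeded the sum of their SDs. Golgi neurons (2.46 on each of 3 arrays), mixed oligodendroglia (3.74 on each of 3 arrays), astrocytes (4.04, 3.54 and 3.67), unipolar brush neurons (4.28, 4.05 and 4.05) and Bergmann glia (4.62, 4.68 and 4.62) of cerebellum were under the limit. Drd1+ neurons were the 1 population above unbound RNA (log2 difference 1.79, SE 0.38, 3.47-fold, adjusted p = 3.1e-05), and no array of theirs overlapped striatal unbound RNA (9.43 at the lowest, 9.76 at the median and 10.26 at the highest over 6 arrays). With the unbound arrays of its own line alone the difference was 1.61 and not called. The gene was lower in 16 of 24, among them all 7 glial populations, with 12.2-fold in cortical astrocytes, 12.7-fold in cortical mature oligodendrocytes and 15.7-fold in Pnoc+ neurons.

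Camk1g, the gamma isoform, known in rodents as a membrane-anchored CaMKI of neurons, had a wide range from high to low populations. It was 11.27, 11.23 and 11.27 in layer 5a, 10.91, 10.99 and 11.16 in stellate and basket, 10.72, 11.22 and 10.48 in layer 5b, 10.66, 10.19 and 10.53 in layer 6 and 10.12, 10.08 and 10.05 in Cort+ neurons. At the other end, Purkinje neurons, granule neurons, unipolar brush neurons, both astrocyte populations and Bergmann glia had means from 1.59 to 2.10, with an SD of 0 in 5 of the 6 and of 0.00804 in unipolar brush neurons. The populations between ran from 9.90 in Drd1+ neurons to 4.93 in mixed oligodendroglia of cortex. The largest step between neighbours, from 4.93 to 2.10, lay under the detection limit. All of the 5 high populations were above their unbound RNA, 5.83-fold in stellate and basket neurons (adjusted p = 3.3e-14), 5.78-fold in layer 5a, 4.23-fold in layer 5b, 3.32-fold in layer 6 and 2.56-fold in Cort+ neurons. Cerebellar unbound RNA had 7.81 at the lowest, 8.59 at the median and 8.86 at the highest over 7 arrays and cortical unbound RNA 8.05 at the lowest, 8.63 at the median and 9.34 at the highest over 9 arrays, so these groups did not overlap with theirs. Camk1g was lower in 9 populations. In the 6 lowest populations the decrease is at least 5.55-fold in cerebellum and at least 6.62-fold in cortex, bounds set by the limit. With the unbound RNA of their own line alone, which is 1 array per line, the calls in layer 5a and layer 6 neurons were lost. The differences were then 1.97 in layer 5a (2.53 as reported) and 1.82 in layer 6 neurons (1.73 as reported). Microglia and macrophage markers were 6 of 6 higher in layer 5a, 2 of 3 tested in layer 5b, 1 of 3 in Cort+, none of 3 in layer 6 and none of 2 in stellate and basket neurons. Astrocyte markers were 4 of 7 higher in layer 5a, 2 of 7 in layer 5b and in layer 6, and none of 7 in Cort+ and in stellate and basket neurons, and all 4 vascular markers tested were higher in layer 5b. The part of these cells in the Camk1g values was not tested.

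Camk4, the nuclear kinase that phosphorylates CREB, was 13.32, 13.38 and 13.16 in granule neurons, 13.14 on each of 3 arrays in Drd1+ and 13.13, 13.14 and 12.93 in Drd2+ neurons, and 12.94, 12.36 and 12.80 in layer 5a neurons. Granule neurons and Drd1+ neurons differed by more than the sum of their SDs, but the Drd1+ values were identical on all arrays. Cholinergic populations were at the bottom with 2.73 on each of 3 arrays in spinal cord, 4.45, 4.51 and 4.51 in brainstem motor neurons and 5.60 on each of 3 arrays in basal forebrain, while striatal cholinergic neurons had 8.02 on each of 3 arrays. Camk4 was higher than unbound RNA in no population and lower in 18 of 24; at an unadjusted limma p under 0.05, 0 of 24 were higher by control probes and 0 after quantile normalisation. In cortical astrocytes it was 3.45, 5.40, 4.27 and 4.72 against 11.84 at the lowest, 12.70 at the median and 13.36 at the highest over 9 arrays in unbound RNA, with no overlap (log2 difference -8.13, SE 0.27, at least 96.1-fold, adjusted p = 8.2e-44). It was also lower in Golgi (136-fold), Purkinje (78.7-fold), basal forebrain cholinergic (at least 66.9-fold) and striatal cholinergic neurons (36.7-fold). The median difference of all genes was -1.96 for Golgi neurons. After quantile normalisation Camk4 averaged 8.53 in Golgi and 8.38 in Purkinje neurons, against 14.11 in cerebellar unbound RNA. In granule neurons themselves the value was -1.01 against unbound cerebellum, which had 13.79 at the lowest, 14.40 at the median and 14.65 at the highest over 7 arrays (2.01-fold, adjusted p = 0.0027), at the 2-fold limit. That call was lost without granule replicate 3 (-0.94), and the second probe set gave 0.39. The Purkinje TRAP arrays of the separate lines did not overlap, with 8.22, 8.89 and 8.78 from DR166 and 7.28, 7.86 and 6.93 from DR168, and every one of these was under all cerebellar unbound arrays.

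Camkk2, the measured kinase upstream of CaMKI and CaMKIV, which also phosphorylates AMP-activated kinase, was 14.89, 14.69 and 14.55 in Drd1+, 14.61, 14.70 and 14.20 in Drd2+ and 14.35, 14.34 and 14.48 in granule neurons. The 8 highest populations, down to Cort+ neurons (13.69 ± 0.21 (SD, n = 3)), were all neuronal and formed 1 run without a gap over the sum of SDs, after which Pnoc+ neurons stood lower at 12.38, 12.38 and 12.40. Motor neurons (8.87, 8.61 and 8.93), cortical astrocytes (8.89, 10.23, 9.70 and 8.68) and cerebellar astrocytes (9.51, 9.24 and 9.58) were lowest and still over the detection limit. It was called higher than unbound RNA in no population and lower in 15 of 24; at an unadjusted limma p under 0.05, 2 of 24 were higher by control probes and 2 after quantile normalisation. The decrease was 29.8-fold in cerebellar astrocytes (adjusted p = 6.3e-30), 23.7-fold in cortical astrocytes, 20.6-fold in Bergmann glia and 9.41-fold in striatal cholinergic neurons. In layer 5a, 5b and 6, Cort+, Cck+ and granule neurons the difference from unbound RNA lay between -0.25 and 0.07 by control probes, none called. After quantile normalisation the means of the cortical ones ran from 13.28 in layer 5a to 14.02 in layer 5b, against 14.34 in cortical unbound RNA.

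Populations were then compared with each other. Over 21 such comparisons the members were higher in 26 and lower in 67 of 173 tests (all genes, 12.5% and 15.3%, 27.8% together). Neurons were set against glia within cortex and within cerebellum, with each population given equal weight. In cortex 8 of 9 members were higher in the 6 neuron populations than in the 3 glial ones and none was lower, against 25.1% and 20.9% of all genes (46% together). The differences in log2 level were 4.93 for Camk1g, 3.56 for Camk4, 3.29 for Camk2b, 2.85 for Camk2a, 2.84 for Camkk2, 2.65 for Camk2d, 2.16 for Camk1d and 1.59 for Camk2g, with adjusted p from 2.1e-15 to 7.3e-46. Camk1 was the exception (log2 difference 1.01, SE 0.18, adjusted p = 6.6e-07, and 0.73 after quantile normalisation). Single arrays overlapped where a population lay outside its class. For Camk2b, neuron arrays ran from 8.89 to 13.00 and glial arrays from 5.48 to 10.60, and for Camkk2 from 12.38 to 14.26 and 8.68 to 12.63. The p-values measure the spread between arrays within populations, as left by the normalisation within groups, and not the spread between the populations averaged.

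In cerebellum 2 members were higher in the 5 neuron populations than in the 4 glial ones and 2 lower (all genes, 15.3% and 21.9%, 37.2% together). Camk2b (log2 difference 1.46, SE 0.18, at least 2.49-fold, adjusted p = 5e-12) and Camkk2 (log2 difference 1.57, SE 0.14, 2.97-fold, adjusted p = 4e-17) were higher. Camk1 (log2 difference -2.71, SE 0.17, at least 3.89-fold, adjusted p = 4.8e-25) and Camk2g (log2 difference -2.18, SE 0.11, at least 2.69-fold, adjusted p = 1.8e-30) were lower. For Camk2g the Purkinje mean was 2.21, far under the detection limit. The other neuron means ran from 7.72 to 9.93, against 7.86 to 11.73 in glia. Camk4 did not pass (log2 difference 0.14, SE 0.17, adjusted p = 0.43), and granule neurons at 13.28 and Golgi neurons at 7.21 lay on either side of the glial means of 7.70 to 11.96. With Golgi neurons and cerebellar mature oligodendrocytes left out, the same 4 calls held and Camk1d (2.39) and Camk4 (1.57) were called higher as well. The median difference of all genes between Golgi TRAP and unbound RNA was -1.96. In cerebellar mature oligodendrocyte TRAP RNA granule markers had a mean level 12.1 against 13.9 in unbound RNA and pan-neuronal markers a mean level 11.4 against 13. In cortex, leaving out layer 5a kept all 8 calls.

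The difference between neurons and glia was itself larger in cortex than in cerebellum for 8 of 9 members, by 4.01 for Camk1g, 3.78 for Camk2g and 3.72 for Camk1 at the top (all genes called in either direction, 17.5%). For Camk2g the sign turned between the tissues, 1.59 in cortex and -2.18 in cerebellum. The cerebellar value includes the Purkinje mean of 2.21, and the contrast without Purkinje neurons was not tested. Without layer 5a, Golgi and cerebellar mature oligodendrocyte arrays, 6 of these 8 held, with 1.55 for Camk2a (3.15 with them), 1.69 for Camk4 (3.42 with them), 1.80 for Camk2d, 2.65 for Camk1, 3.80 for Camk2g and 4.17 for Camk1g. Camk2b (0.28, SE 0.28, adjusted p = 0.36) and Camkk2 (0.57, SE 0.22, adjusted p = 0.019) fell short of the call. The cortical and cerebellar sides hold different cell types, so tissue and cell type cannot be told apart in this contrast.

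**Figure D3:**
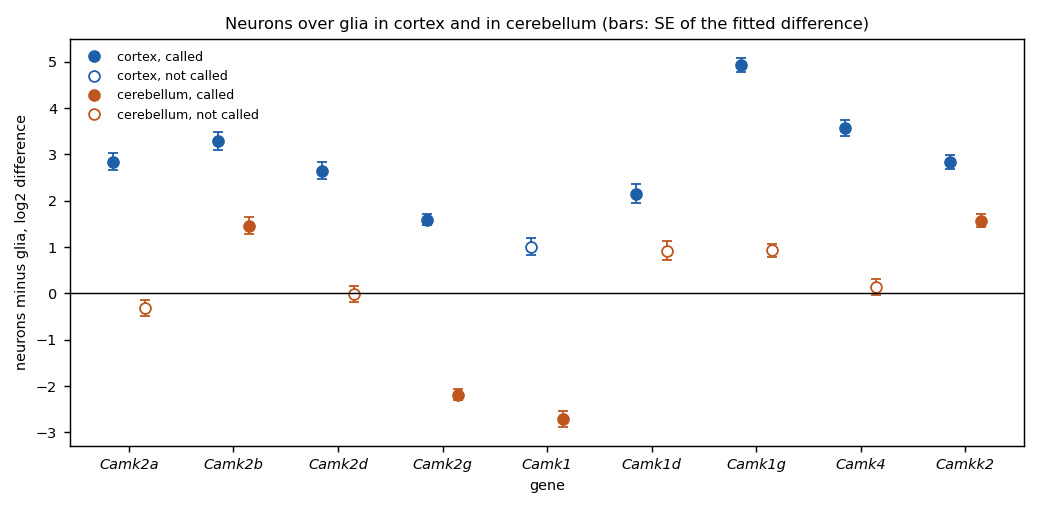
Difference in log2 level between neurons and glia for each kinase in cortex (blue) and cerebellum (orange), with the SE of the fitted difference as bars; filled points were called and open points were not. Camk2g and Camk1 lie above 0 in cortex (1.59 and 1.01) and below 0 in cerebellum (-2.18 and -2.71).

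In striatum all 9 members differed between cholinergic interneurons and medium spiny neurons (all genes, 48%), with Camk1 (at least 18-fold) and Camk2d (at least 2.25-fold) higher in cholinergic neurons and the other 7 lower. Camk2a was 45.8-fold lower (6.83, 6.47 and 6.52 in cholinergic neurons, against 12.22, 12.10 and 12.10 in Drd1+ and 11.58, 12.54 and 12.22 in Drd2+ neurons). Camk4 was 33.9-fold, Camk1d 25.7-fold, Camkk2 16.3-fold, Camk1g 9.73-fold, Camk2b 9.36-fold and Camk2g 3.91-fold lower, with adjusted p from 1.3e-13 to 1.7e-27. The second probe set of Camk2g gave 0.86 here, the opposite direction. Drd1+ and Drd2+ neurons differed in 1 of 8 members tested (all genes, 3.51%). This was Camk1, with 7.35, 7.56 and 7.57 in Drd1+ and 4.78, 4.84 and 5.52 in Drd2+ neurons and no overlap (log2 difference 2.45, SE 0.38, at least 2.82-fold, adjusted p = 2.2e-07). The other 7 differed by 0.03 to 0.87 with none called.

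Medium spiny neurons were also set against the layer 5a, 5b and 6 neurons of cortex, the other projection neurons with high Camk2a. Camk2a (log2 difference 0.45, SE 0.24, adjusted p = 0.078), Camk2b (0.58), Camk1d (0.50), Camk4 (0.88) and Camkk2 (0.68) did not pass, and the 95% interval of the Camk2a difference was -0.02 to 0.92. The 4 members that passed were all lower in medium spiny neurons (all genes in either direction, 33.7%): Camk1 (at least 16-fold, adjusted p = 5.1e-29), Camk2d (at least 12.8-fold), Camk2g (3.11-fold) and Camk1g (2.38-fold). Camk1g lost its call without Drd1+ replicate 3 (-1.08). Left without the layer 5a arrays, the comparison kept these 4 and called Camk4 higher (1.12).

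Among the cortical layer populations few kinases were called, near the shares of all genes. Between layer 5a and layer 5b neurons no member of 9 was called (all genes, 10.9%). The largest difference, for Camk1, was 1.30 by control probes (adjusted p = 0.0027) and 0.88 by quantile normalisation. By control probes 3 of 9 had an unadjusted limma p under 0.05. After quantile normalisation 4 of 9 had an adjusted limma p under 0.05. Layer 5b neurons exceeded layer 6 neurons in Camk2b alone (log2 difference 1.31, SE 0.38, 2.47-fold, adjusted p = 0.0051; all genes, 11.3%). The layer 6 arrays had 12.24, 10.81 and 10.59, the highest lying apart. That call was lost without the lowest of them, replicate 3 (difference 1.00 without it).

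The 3 other cortical neuron populations were lower than the layer populations to different extents. Cort+ neurons, named for the interneuron peptide cortistatin, were lower in Camk2d (7.35, 7.35 and 7.62, 4.72-fold) and Camk2b (9.90, 10.67 and 10.33, 3.79-fold), with the other 7 not called (all genes, 20%). Their Camk4, at 12.10 ± 0.18, differed from the layers by -0.12 (95% interval -0.71 to 0.46). Cck+ neurons were lower in Camk2d (10.9-fold), Camk2b (6.13-fold), Camk1d (4.75-fold) and Camk4 (3.49-fold; all genes, 26.7%). Pnoc+ neurons were lower in 7 of 9 (all genes, 28.2%), by 21.7-fold for Camk4, 19.7-fold for Camk2a and 16.9-fold for Camk2g. Only Camk1 and Camkk2 were not called there, and neither reached 2-fold after quantile normalisation (0.25 and -0.28). The median of all genes was 2.12 lower in Pnoc+ than in layer neurons by control probes, and relative to it Camk4 was -2.32 and Camk2a -2.18. Interneuron markers were 3 of 6 higher in Pnoc+ and 4 of 6 higher in Cort+ TRAP RNA than in unbound RNA. Cortical glutamatergic markers were also present in Cort+ TRAP RNA (mean level 9.69 against 9.44), and their part in the Camk2a value was not tested.

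**Figure D4:**
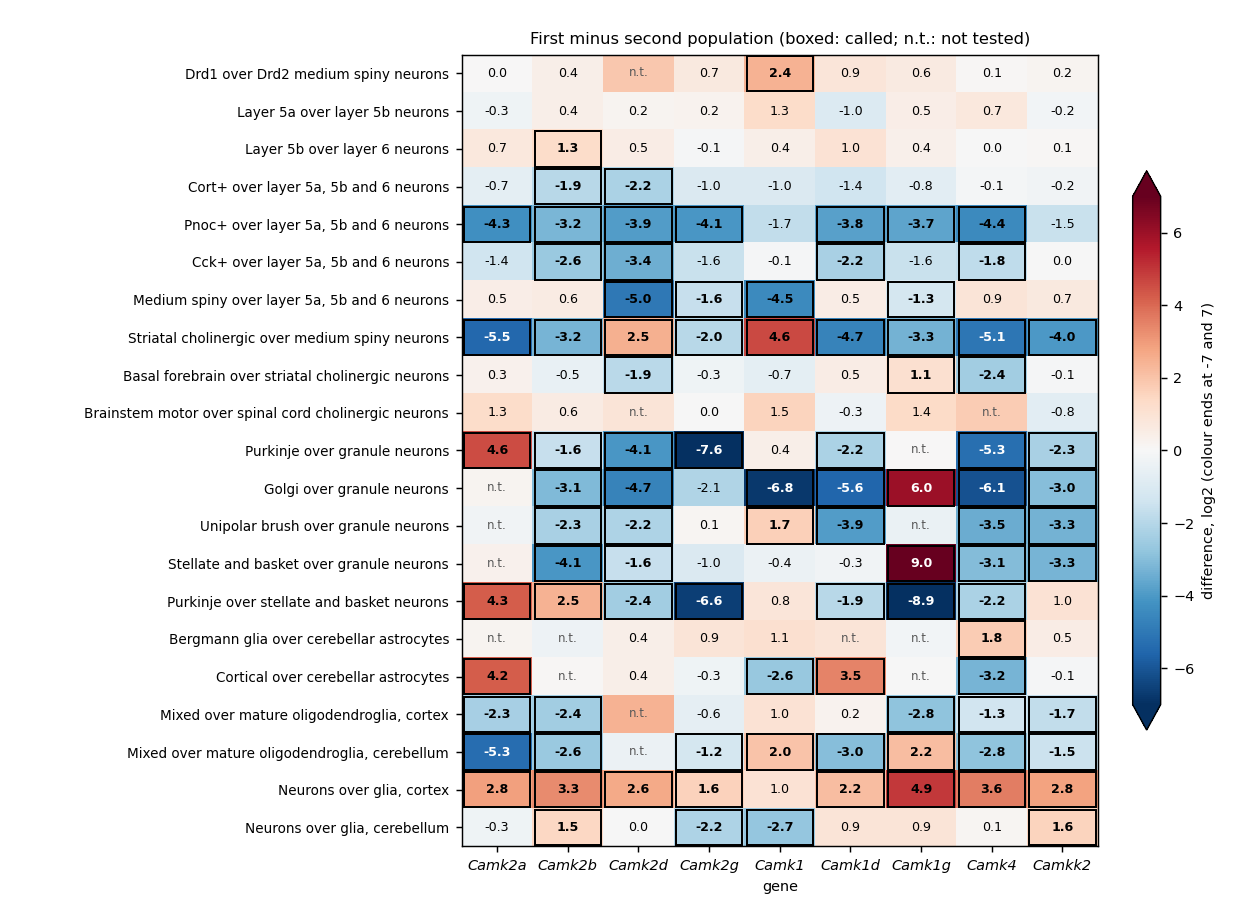
Difference in log2 level between TRAP populations, first-named minus second-named, for each comparison (rows) and kinase (columns), after control-probe scaling; boxed values were called and n.t. marks values not tested. The row of striatal cholinergic against medium spiny neurons has all 9 values boxed, and that of layer 5a against layer 5b neurons has none.

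In cerebellum the other neuron types were compared with granule neurons, whose 3 arrays are shared by these comparisons. Camk2b, Camk2d, Camk4 and Camkk2 were lower than in granule neurons in each of the other 4 types. Camk4 was 67.5-fold lower in Golgi, 39.2-fold in Purkinje, 10.9-fold in unipolar brush and 8.34-fold in stellate and basket neurons. By control probes the median difference of all genes between Golgi and granule neurons was -1.23. After quantile normalisation Camk4 averaged 13.04 in granule, 8.53 in Golgi and 8.38 in Purkinje neurons, so Purkinje neurons were then below Golgi neurons. For Camkk2 the values ran from 4.84-fold in Purkinje to 9.78-fold in unipolar brush neurons. Purkinje neurons were lower in 6 of 8 members tested (all genes, 44.9%), the others being Camk1d (at least 4.07-fold) and Camk2g. Camk2g was at least 14-fold lower (2.10 at the lowest, 2.10 at the median and 2.78 at the highest over 6 arrays in Purkinje neurons, against 9.87, 9.97 and 9.59 in granule neurons). Camk2a was higher in Purkinje neurons (log2 difference 4.58, SE 0.32, at least 1.51-fold, adjusted p = 5.8e-23), where its level just passed the limit.

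Each of the other types was higher than granule neurons in 1 CaMKI gene. Camk1g was at least 32.4-fold higher in stellate and basket neurons (10.91, 10.99 and 11.16, against 2.06 on each of 3 arrays in granule neurons) and at least 4.12-fold higher in Golgi neurons (8.23, 7.59 and 8.30). Camk1 was 3.2-fold higher in unipolar brush neurons (10.69, 10.68 and 10.69, against 8.68, 9.06 and 9.28 in granule neurons) and at least 8.05-fold lower in Golgi neurons. Astrocyte markers had a mean level of 11.7 in unipolar brush and 6.06 in granule TRAP RNA, and Bergmann glia markers 14 and 9.13. The part of these glia in the Camk1 difference was not tested. Camk1d was lower in Golgi (at least 4.07-fold) and in unipolar brush neurons (at least 4.07-fold). Called members in either direction numbered 7 of 8 in Golgi (all genes, 32.1%), 6 of 7 in unipolar brush (37.4%) and 5 of 8 in stellate and basket neurons (39.3%). Between the inhibitory types, Purkinje neurons were lower than stellate and basket neurons in Camk1g (at least 32.4-fold), Camk2g (at least 6.84-fold), Camk4 (4.7-fold), Camk1d (at least 3.37-fold) and Camk2d (at least 1.91-fold), and higher in Camk2b (5.47-fold) and Camk2a (at least 1.51-fold; all genes, 37.6%). Purkinje markers in stellate and basket TRAP RNA were at mean level 13 against 14.7 in unbound RNA, and their part in these values was not tested.

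The Chat line allowed 1 transmitter class to be followed through 4 tissues. Camk2a was 6.90, 6.91 and 6.90 in basal forebrain, 6.83, 6.47 and 6.52 in striatal, 6.14 on each of 3 arrays in brainstem and 4.84 on each of 3 arrays in spinal cholinergic neurons, low in all. Basal forebrain exceeded striatal cholinergic neurons in Camk1g (log2 difference 1.11, SE 0.31, 2.16-fold, adjusted p = 0.0041) and was lower in Camk4 (at least 4.06-fold, adjusted p = 7.9e-08) and Camk2d (at least 2.25-fold), with 6 members not called (all genes, 7.61%). The second probe set gave 0.043 for the Camk2d difference. Brainstem motor and spinal cholinergic neurons differed in none of 7 members tested (all genes, 11.2%), although 4 had an unadjusted limma p under 0.05 by control probes and 4 after quantile normalisation. Camk1 had 9.71, 10.11 and 10.05 in brainstem and 8.12, 8.48 and 8.68 in spinal cord (log2 difference 1.53, SE 0.38, adjusted p = 3e-04, and 0.70 after quantile normalisation).

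Among glia, Bergmann glia differed from other cerebellar astrocytes in 1 of 5 members tested (all genes, 10.1%), Camk4, with 9.67, 9.54 and 9.24 in Bergmann glia and 7.98, 7.51 and 7.60 in astrocytes (log2 difference 1.78, SE 0.36, 3.44-fold, adjusted p = 3.3e-05). Camk4 was highest in cerebellum among unbound tissues, and granule markers were at mean level 9.72 against 13.9 in unbound RNA for Bergmann glia and mean level 8.97 against 13.9 for astrocytes. Their part in the Camk4 difference was not tested. Cortical astrocytes differed from cerebellar ones in 4 of 7 members (all genes, 26.6%). They were lower in Camk1 (8.38, 8.10, 7.98 and 9.55, against 11.23, 11.27 and 10.96 in cerebellum, 6.27-fold, adjusted p = 5.3e-10) and Camk4 (at least 3.24-fold), and higher in Camk1d (at least 2.31-fold) and Camk2a (at least 1.43-fold).

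Mixed oligodendroglia, from a line driven by Olig2, a transcription factor of the whole oligodendrocyte lineage, were set against mature oligodendrocytes. In cortex 5 of 8 members were lower in the mixed population (all genes, 29.9%): Camk2b (5.37-fold), Camk2a (5.07-fold), Camk1g (at least 3.37-fold), Camkk2 (3.33-fold) and Camk4 (2.49-fold), the last lost without mixed oligodendroglia replicate 1 (-0.93). In cerebellum all 8 members tested were called (all genes, 32.8%). Camk1 (3.95-fold) and Camk1g (at least 2.3-fold) were higher in the mixed population. Camk4 (7.17-fold), Camk2b (6-fold), Camk2a, Camk2g, Camk1d and Camkk2 were lower, and Camk2d, under the detection limit in both, was not tested. The Camk2g call among them was lost without mature oligodendrocyte replicate 2 (-0.84). Camk1g went opposite ways in the tissues, with 4.19, 4.86 and 5.74 in mixed and 7.79, 7.81 and 7.66 in mature cells of cortex, but 7.19, 7.22 and 7.19 in mixed and 5.78, 5.78 and 3.50 in mature cells of cerebellum. The difference of the differences was -5.01 (SE 0.44, adjusted p = 1.2e-16; all genes, 18.1%). Pan-neuronal markers had mean levels of 10.2 in mixed against 11.5 in mature TRAP RNA of cortex, and 9.14 against 11.4 in cerebellum, and their part in these differences was not tested.

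The unbound RNA gives the kinases in whole tissue. Of 44 tests against cerebellum, 6 were higher and 9 lower (all genes in either direction, 31.5%; 11.5% higher and 20% lower). By tissue 3 of 9 members were called in cortex (all genes, 28.4%), striatum (31.2%), basal forebrain (32.5%) and brainstem (32.6%), and 3 of 8 in spinal cord (32.8%). Camk2a was 10.33 at the lowest, 11.31 at the median and 11.84 at the highest over 9 arrays in cortex, 9.66 at the lowest, 10.78 at the median and 11.68 at the highest over 6 arrays in striatum and 10.57, 10.57 and 10.99 in basal forebrain, against 6.07 at the lowest, 6.34 at the median and 6.70 at the highest over 7 arrays in cerebellum. The forebrain arrays lay above all cerebellar ones, 29.2-fold for cortex, 20.2-fold for striatum and 20.3-fold for basal forebrain (adjusted p = 2.1e-33, 1.6e-27 and 6.1e-22). Camk4 ran the other way: 8.30, 7.87 and 8.49 in spinal cord and 9.24, 10.26 and 9.82 in brainstem, against 13.79 at the lowest, 14.40 at the median and 14.65 at the highest over 7 arrays in cerebellum. It was 67.2-fold lower in spinal cord, 22.9-fold in brainstem, 4.68-fold in basal forebrain and 3.26-fold in cortex. Camkk2 was lower than in cerebellum in brainstem (7.98-fold), spinal cord (6.91-fold) and basal forebrain (2.13-fold), the last lost without basal forebrain replicate 3 (-0.88). Camk2g was 2.49-fold higher in spinal cord, although its second probe set gave -0.23, Camk2b 2.34-fold higher in striatum and Camk1d 2.49-fold higher in cortex. Camk2d was lower in striatum (4.94 at the lowest, 5.77 at the median and 7.06 at the highest over 6 arrays, at least 4.34-fold) and in brainstem (6.21, 6.75 and 6.75, 2.92-fold), against 7.51 at the lowest, 8.17 at the median and 8.73 at the highest over 7 arrays in cerebellum. Camk1 and Camk1g were called in no tissue, with 1 of 5 each at an unadjusted limma p under 0.05 by control probes and 3 and 5 of 5 after quantile normalisation. Among TRAP populations these genes spanned 10.04 and 9.66 log2 units, against 1.60 and 0.73 among unbound tissues. The lowest TRAP means of Camk1 and Camk1g, 2.23 and 1.59, were under the detection limit, and all their unbound means were over it.

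**Figure D5:**
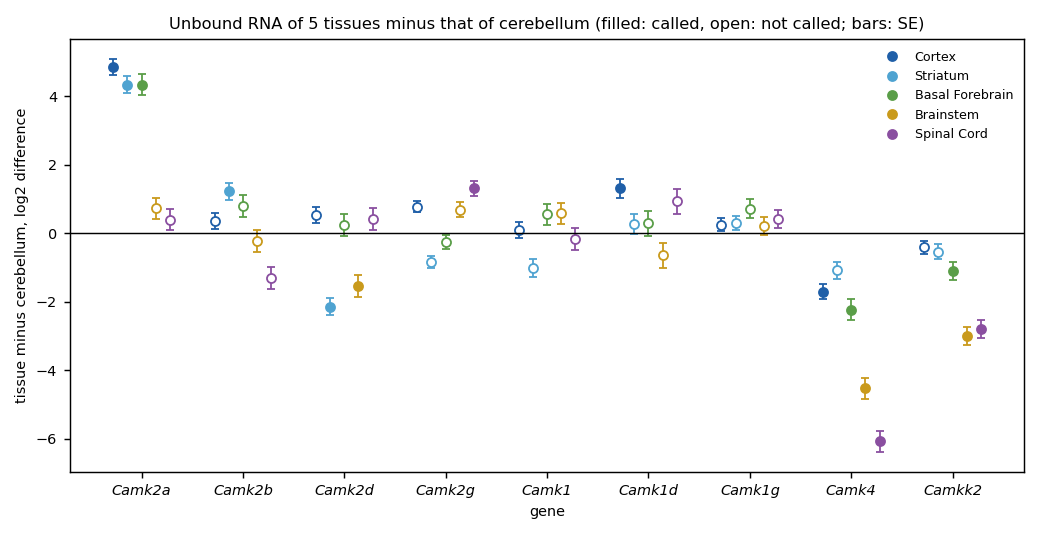
Difference in log2 level between unbound RNA of 5 tissues and that of cerebellum for each kinase, with the SE as bars; filled points were called, and open points were not called or, for Camk2a of spinal cord, not tested under both scalings. Camk2a of cortex, striatum and basal forebrain lies farthest above 0 and Camk4 of spinal cord farthest below it.

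A list of 44 genes around the kinases was read beside them, from calmodulin-sequestering proteins to related kinases, CaMKII inhibitors, phosphatases and substrates; 38 of them were analysed here. In cortex 24 of 36 tested were higher in neurons than in glia and 2 lower, with a median difference of 2.07 against 0.26 over all genes tested (all genes, 25.1% higher and 20.9% lower). The leading ones were Syn1, a synaptic vesicle substrate of CaMKI and CaMKII (at least 17.5-fold), Camkv, a kinase-like protein without catalytic activity (at least 15.3-fold), and Dlg4, the scaffold PSD-95 (at least 1.93-fold). Phkg1, a phosphorylase kinase subunit (log2 difference -1.13), and Prkaa1, an AMP-activated kinase subunit (-1.06), were lower. In cerebellum 9 of 35 were higher in neurons and 4 lower (median 0.48 against -0.16; all genes, 15.3% and 21.9%). Pde1b (at least 2.78-fold), the CaMKII inhibitor Camk2n2 (4.34-fold) and the calcineurin subunit Ppp3cb (3.72-fold) led the higher ones, and the myosin light chain kinase Mylk (at least 1.33-fold), the calmodulin-binding protein Marcks (4.6-fold) and Phkg1 (log2 difference -2.12) the lower ones.

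Striatal cholinergic neurons had 5 of 34 list genes higher and 20 lower than medium spiny neurons (all genes in either direction, 48%). Camk2n2 was 24.4-fold higher in the cholinergic neurons (mean 13.87 against 9.27), the same comparison in which Camk2a and Camk2b were lower, and Nos1, neuronal nitric oxide synthase, was 3.48-fold higher. Pde1a, a calmodulin-dependent phosphodiesterase, was at least 7.14-fold higher. Camkv was 76.7-fold, the transcription factor Mef2c 48.4-fold and the actin crosslinker Actn2 at least 17-fold lower. Purkinje neurons had 4 of 28 higher and 14 lower than granule neurons (all genes in either direction, 44.9%), with the calmodulin-binding peptide Pcp4 58.7-fold higher (mean 16.70 against 10.83) and Gap43, a calmodulin-sequestering growth cone protein, at least 164-fold lower. The AMPA receptor subunit Gria1 (at least 13.4-fold) and Mef2c (7.66-fold) were also higher, and Marcks (8.77-fold) and the CaMKI-like kinase Pnck (at least 4.14-fold) lower. Drd1+ neurons exceeded Drd2+ neurons in 2 of 34 (all genes in either direction, 3.51%), Pde1a (at least 3.52-fold) and the CaMK phosphatase Ppm1e (at least 3.31-fold). Against unbound RNA, cortical astrocytes had 26 of 35 lower and 2 higher (all genes, 29.4% and 31.6%). Syn1 (at least 17.4-fold), the cyclase Adcy1 (at least 58.8-fold) and Ppm1e (at least 20.4-fold) led the lower ones, and Phkg1 (at least 14-fold) and the kinase Akt1 (2.19-fold) were higher. Layer 5b neurons had 9 higher and 2 lower of 36 (all genes, 17% and 4.97%), led by Phkg1 (at least 2.51-fold), Syn1 (4.74-fold) and Pnck (4.24-fold), with Mylk (3.74-fold) and Pde1c (at least 1.17-fold) lower.

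Among 12390 other genes, those whose mean level over the 24 TRAP populations was most like that of each kinase were found by Pearson correlation, given as description. They were Gda (0.94), Ptk2b (0.94), Myo5b (0.94) for Camk2a, Madd (0.92), Ddhd2 (0.92), Rasgef1a (0.92) for Camk2b, Ppp3r1 (0.91), Dock3 (0.91), Zswim8 (0.91) for Camk1d, Snx30 (0.91), Adcy1 (0.90), Phip (0.90) for Camk4 and Hnrnpdl (0.92), Ccsap (0.92), Reln (0.91) for Camkk2. For the others they were Galnt16 (0.90), Slc37a4 (0.89), Dusp1 (0.89) for Camk2g, Gabra3 (0.91), Sorcs3 (0.89), Kcnq3 (0.88) for Camk1g, Uqcrc2 (0.81), Wwox (0.80), Tmem209 (0.80) for Camk2d and Prdx4 (0.81), Slc35f5 (0.78), Rrbp1 (0.76) for Camk1, which had the loosest matches. Between members, the closest were Camk2b with Camkk2 (0.84), Camk4 with Camkk2 (0.84) and Camk2a with Camk1d (0.83), and Camk1 with Camk1g gave -0.19. The 24 points share arrays within populations, the scaling and, by tissue, their cellular surroundings.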

How the data were processed

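Affymetrix 3' arrays were measured in 76 TRAP and 31 unbound samples, grouped by population or tissue from the labels. The deposited values are linear intensities made by the authors with GCRMA (version not given in the sources used here), per the submitters' processing notes and the series' design text, within groups; each of the 30 groups had 1 lowest value of its own, so normalisation set and group cannot be told apart.

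Intensities were set to at least 1 and turned into log2 values here; these log2 levels come from the deposited intensities. Of 45101 probe sets 34945 carried 1 symbol, 932 several and 9211 none in the platform annotation. Groups were shifted to equal means of 18 biotinylated control probe sets, as the design text advises (group means 10.13 to 12.00 before), and quantile normalisation over all arrays was the second scaling. All 30 groups were fitted at once in limma 3.58.1 (R 4.3.3, lmFit, eBayes with trend), with Benjamini-Hochberg adjustment over all genes tested in a comparison and the call rule given above. The fit was tested on simulated data. The p-values measure the spread between preparations within a group, and precision is limited by how many arrays a group has.

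The members and lists were chosen with earlier results of these data known. The text names all members, the members called in each comparison, the 3 genes most like each member, and of the pathway list, in the comparisons whose counts are given, up to 3 called genes farthest up and 3 farthest down; in the other comparisons no list gene is named. The contrasts between cortex and cerebellum were chosen after values were seen. The gene lists matched 38 of 44 pathway and 68 of 73 marker symbols. Arrays of striatum and of corpus striatum were treated as 1 tissue. Alternatives varied the scaling, filter, probe set, fold bound, variance model, arrays in the fit, replicate number as a block, BAC line and left-out arrays.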

Additional observations from a re-analysis of the deposited data

Results flagged for a closer look

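Of 43 combinations of member and group that could be tested for an array lying apart from the rest, 3 had one by Dixon's criterion, where chance gives about 1 in 20. Only groups of more than 3 arrays could be tested: cortical astrocytes, Purkinje TRAP RNA and unbound RNA of cortex, cerebellum and striatum. All 3 came from Purkinje lines. Camk1d was 10.39 in the cerebellar unbound RNA of Purkinje line DR168 replicate 3, against 9.18 to 9.65 on the other unbound arrays of cerebellum. Camk2d was 4.86 in Purkinje TRAP RNA of DR166 replicate 3, against 4.38 to 4.44 on the other Purkinje arrays, all under the detection limit. Camk2g was 2.78 in Purkinje TRAP RNA of DR166 replicate 1, against 2.10 on the others, also under it. The 6 Purkinje arrays held 3 distinct values for Camk2d and 2 for Camk2g, so the rate of 1 in 20 need not hold there.

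The difference between neurons and glia differed between cortex and cerebellum by a test of the difference itself in 8 members. In log2 units, cortex minus cerebellum, it was 3.15 for Camk2a, 1.83 for Camk2b, 2.67 for Camk2d, 3.78 for Camk2g, 3.72 for Camk1, 4.01 for Camk1g, 3.42 for Camk4 and 1.27 for Camkk2. Of these, Camk2b and Camkk2 lost the call without the layer 5a, Golgi and cerebellar mature oligodendrocyte populations, and Camk2a and Camk4 were then 1.55 and 1.69, as given above. For some members, such as Camk2a and Camk1g, several cerebellar means in this contrast were under the detection limit. For Camk2g only the Purkinje mean (2.21) was under it. The difference between mixed and mature oligodendroglia also differed between the tissues, by 2.97 for Camk2a, 3.23 for Camk1d, -5.01 for Camk1g and 1.53 for Camk4. Of these 4, Camk1g alone was called in opposite directions, lower in the mixed population of cortex and higher in that of cerebellum. In cerebellar mixed oligodendroglia Camk2a (1.55) and Camk1d (3.74) were under the detection limit, with 1 value on all arrays. Camk1g was under it in mixed oligodendroglia of cortex (4.93) and mature oligodendrocytes of cerebellum (5.02). The sizes for Camk2a, Camk1d and Camk1g therefore rest on levels under the limit.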

How the results depend on the processing

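Calls of the members numbered 17 for TRAP above unbound RNA, 101 for TRAP below it, 93 between populations and 15 between unbound tissues. Those 4 counts stayed within 1.5 times under control-probe scaling alone, no further scaling, either filter on low values, the mean of all probe sets, another variance model, fits on the compared groups alone, own-line unbound arrays and single BAC lines. Quantile normalisation alone gave 27 higher calls and 28 between unbound tissues, the second probe set 30 and 24, and limma's treat test with a 2-fold bound 8 and 8. Requiring the higher side to exceed its own unbound RNA left 41 calls between populations. Leaving out layer 5a, Golgi and cerebellar mature oligodendrocyte populations, chosen after seeing the data, is a recount with no new fit: the 12 comparisons between populations without them hold 49 of the 93 calls. With replicate number as a block over all arrays the counts were 16, 102, 93 and 15. With TRAP and unbound arrays of 1 line and number as pairs, over 7 comparisons, the replicate block gave 2 higher calls, against 5 without it, and 24 lower, against 26. Deviations of equal-numbered arrays correlated over 0.1 in all 3 pairs of brainstem motor neurons (0.44 to 0.56) and of basal forebrain cholinergic neurons (0.28 to 0.43), where the block lost none of the 3 and 7 calls. In the other 5 populations the 12 pairs ran from -0.25 to 0.16, and there the calls lost were Camk2d in striatal cholinergic (0.34), Camk1d in Drd1+ (1.78), Camk2a (1.28) and Camk1 (-3.20) in Drd2+ and Camkk2 in spinal cholinergic neurons (-1.98). Unbound arrays of the same line alone lost 6 calls, the 4 among Camk2d, Camk1d and Camk1g given above, Camk2b in Cck+ neurons (-0.56) and Camk2a in cortical mature oligodendrocytes (-0.77). The cortical lines among these have 1 unbound array each.

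Leaving out each array in turn in groups of up to 5 gave 16 to 18 higher, 100 to 102 lower, 92 to 96 population and 14 to 16 tissue calls; 11 of 226 called values were lost in 1 or more and none reversed. Beside those named above they were Camk2g in striatal cholinergic neurons (-1.08 without replicate 3), Camk2b in cortical mature oligodendrocytes (-1.08 without replicate 3), Camk1d in stellate and basket neurons (-1.75 without replicate 2) and Camkk2 in spinal cholinergic neurons (-1.76 without unbound spinal cord replicate 3). The second probe set reversed 7 called values, and the cause was not tested: Camk2g in TRAP over unbound RNA of cortical astrocytes (0.33) and striatal cholinergic neurons (0.046), in striatal cholinergic over medium spiny neurons (0.86) and in unbound spinal cord over cerebellum (-0.23), Camk4 in Cck+ (1.48) and granule neurons (0.39), and Camk2d in basal forebrain over striatal cholinergic neurons (0.043). With it another 41 of the 226 called values kept their direction but lost the call, and 178 held. Camk2b and Camk1g have 1 probe set each, which was kept in this setting. With the mean of all probe sets 161 called values held and 65 lost the call without reversing.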
